A study of Mus musculus with 13 samples.

Results

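Mesenchymal stromal cells (MSCs) sorted from recovered mice were compared with MSCs sorted from pre-leukemic mice. All libraries whose labels name either state were taken, which gave 10 of the 13 libraries of the series, 4 recovered and 6 pre-leukemic. The 3 healthy libraries stood outside the contrast and are given as a background. Healthy 1 and 3 differed by little more than sampling noise (chi-square per gene of 1.2, against 17.4 and 17.8 for their pairs with healthy 2), so they may be 1 library, and each healthy range below then spans 2 samples. Every mouse had a C57BL/6 background, and the cells came out of nucleated mixtures of marrow and compact bone. The recovered libraries match the protocol's pre-leukemic mice that were treated with MSCs, and whether their sorted cells are host or donor cells is not given in the sources used here. The alleles or agent behind the pre-leukemia, the ages, the surface markers of the sort and whether replicates are separate animals are not given either, and each p-value below therefore rests on variation among libraries that may be technical.

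MSCs of the marrow are connective-tissue cells that can give rise to bone, cartilage and fat. They lay down matrix and make the chemokine Cxcl12, the cytokine Kitl and other factors that hold and feed blood-forming cells, and they answer to bone morphogenetic protein (BMP), Wnt and growth factor signals. In marrow they lie among leukocytes, plasma cells and red cell precursors, so markers of those cells were read in every library beside the stromal ones.

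The marker genes went against the MSC label in the pre-leukemic libraries. Summed over 8 stromal markers (Pdgfra, Pdgfrb, Cxcl12, Lepr, Prrx1, Col1a1, Col1a2 and Dcn), expression was 216 to 867 FPKM (fragments per kilobase of gene, scaled to library depth) in pre-leukemic, 5930 to 8240 in recovered and 14700 to 15900 in healthy libraries. The 5 plasma cell markers summed to 45700 to 71100 FPKM in the pre-leukemic group and to 42.0 to 80.3 in the recovered group, where Prdm1 and Tnfrsf17 were listed at 0 in all 4. The share of all FPKM taken by immunoglobulin genes alone ran from 54.9 to 80.5% in the pre-leukemic (54.9 and 55.3% in replicates 1 and 2, where the kappa constant region is listed at 0, which may be a failed estimate) and from 0.0059 to 0.134% in the recovered group. Markers of all leukocytes (752 to 1260 against 11.2 to 77.6 FPKM), neutrophils (2680 to 13700 against 1.52 to 590), monocytes and macrophages (915 to 1420 against 2.61 to 19.7), T and NK cells (316 to 586 against 0.504 to 58.8) and B cells (379 to 544 against 19.7 to 173) did not overlap between the groups either. Red cell markers ran the other way, with sums of 1410 to 2230 FPKM in recovered, 28.9 to 40.9 in healthy and at most 1.15 in pre-leukemic libraries. So did platelet markers (27.7 to 62.0 in recovered against 0 to 9.02 in pre-leukemic libraries) and osteoclast markers (142 to 534 against 39.4 to 74.7). The osteoclast sum followed Ctsk, while Acp5 of the same set was lower in recovered libraries. Sums of endothelial markers overlapped. The pre-leukemic sum of monocyte and macrophage markers came mostly from Lyz2 (94.2 to 683 FPKM) and Ctss (524 to 850). Csf1r of the same set was hardly measured in either group, so this sum rests on few genes. All libraries are bulk samples, so fewer cells of a type and less RNA per cell cannot be told apart. The part that mixed cell types play in the changes below was not tested.

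**Figure D1:**
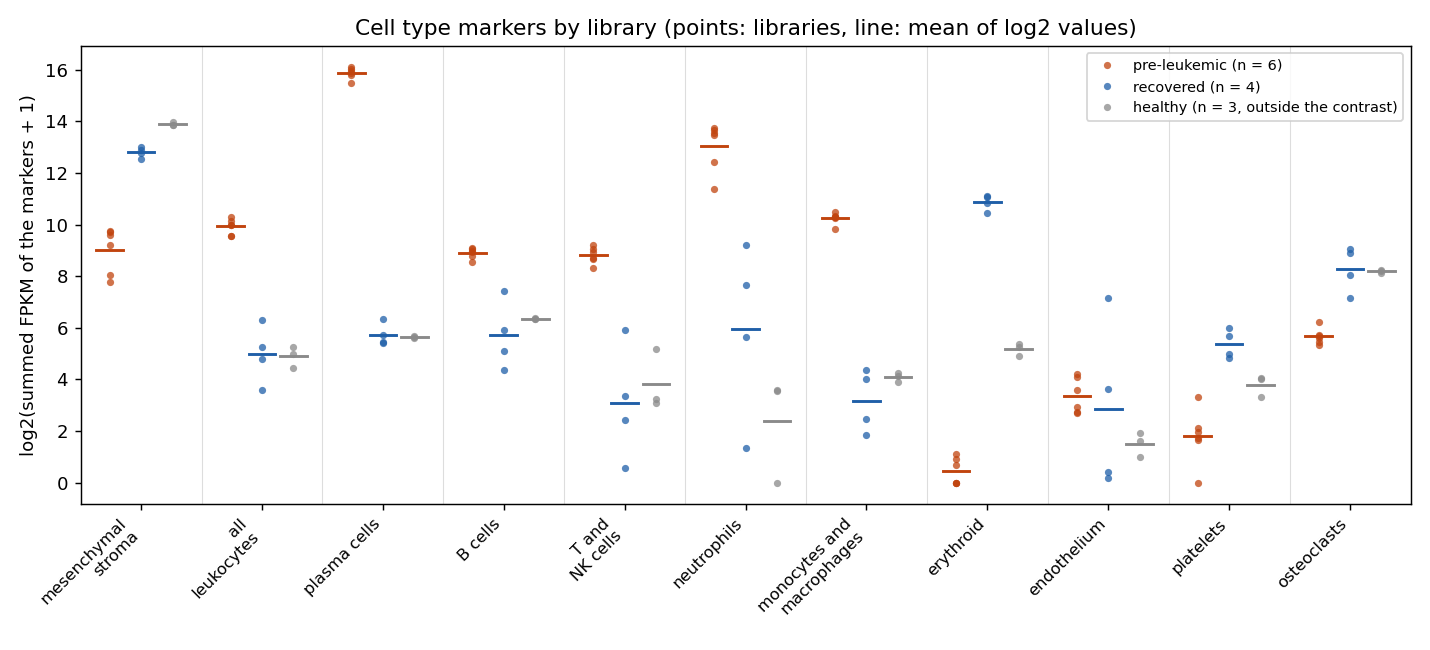
Summed FPKM of the marker genes of 11 cell types on a log2(sum + 1) axis, 1 point per library (pre-leukemic, recovered, healthy) and a line at the mean of the log2 values. Stromal, red cell, platelet and osteoclast markers are higher in all 4 recovered than in all 6 pre-leukemic libraries. Markers of leukocytes, plasma cells, B cells, T and NK cells, neutrophils, and monocytes and macrophages are lower, and those of endothelium overlap.

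Depth differed with the group as well. From the steps between low values, 1 read on 1 kb was worth 0.171 to 0.256 FPKM in the pre-leukemic group and 0.351 to 0.638 in the recovered group, and 3 reads 0.514 to 0.768 and 1.05 to 1.92. Mitochondrial ribosomal RNA made up 0.161 to 0.205% of the sum without immunoglobulins in the pre-leukemic group and 0.903 to 1.23% in the recovered group. Genes with at least 1 FPKM numbered 10898.0 ± 291 (SD, n = 6) and 9202.5 ± 534 (n = 4), and the difference of -1695.5 reached the smallest p that an exact two-sided permutation test of these libraries can give (p = 0.00476). The recovered libraries also varied more among themselves. Their median SD per gene was 0.92 on the log2(FPKM + 1) scale, against 0.54, and of the genes that reached 10 FPKM in some library of the group, 13.8% were listed at 0 in another (4.65% among pre-leukemic libraries). Principal components placed the groups apart on the first axis (54.8% of variance) and recovered 3 apart from the rest on the second (10.9%).

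Of 13118 genes tested with limma on log2(FPKM + 1), 5037 (38.4%) differed at an adjusted p under 0.05. In recovered libraries 1896 were higher (14.5%) and 3141 lower (23.9%), while 1402 genes (10.7%) lay above, and 2160 (16.5%) below, all pre-leukemic values in every recovered library. The median log2 change over all genes was -0.41. This split depended on the scale: quantile normalization gave 2380 higher and 2340 lower genes around a median of -0.08, and the TPM scale, which divides by a sum rich in immunoglobulins, gave 3660 higher and 1187 lower around 0.58. On the TPM scale all 1896 higher genes were called again, but 1187 of the 3141 lower genes (37.8%) were, and 10 were called higher. Gene groups are described below by their counts of members called and their median, to be read against 14.5% higher, 23.9% lower and -0.41. A gene entered only with 1 FPKM in 3 libraries, so members silent in a group passed through the other libraries, and the counts are descriptions. The genes named below are the largest changes and the 3 of each list with the smallest p, and others were chosen after their values were seen.

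**Figure D2:**
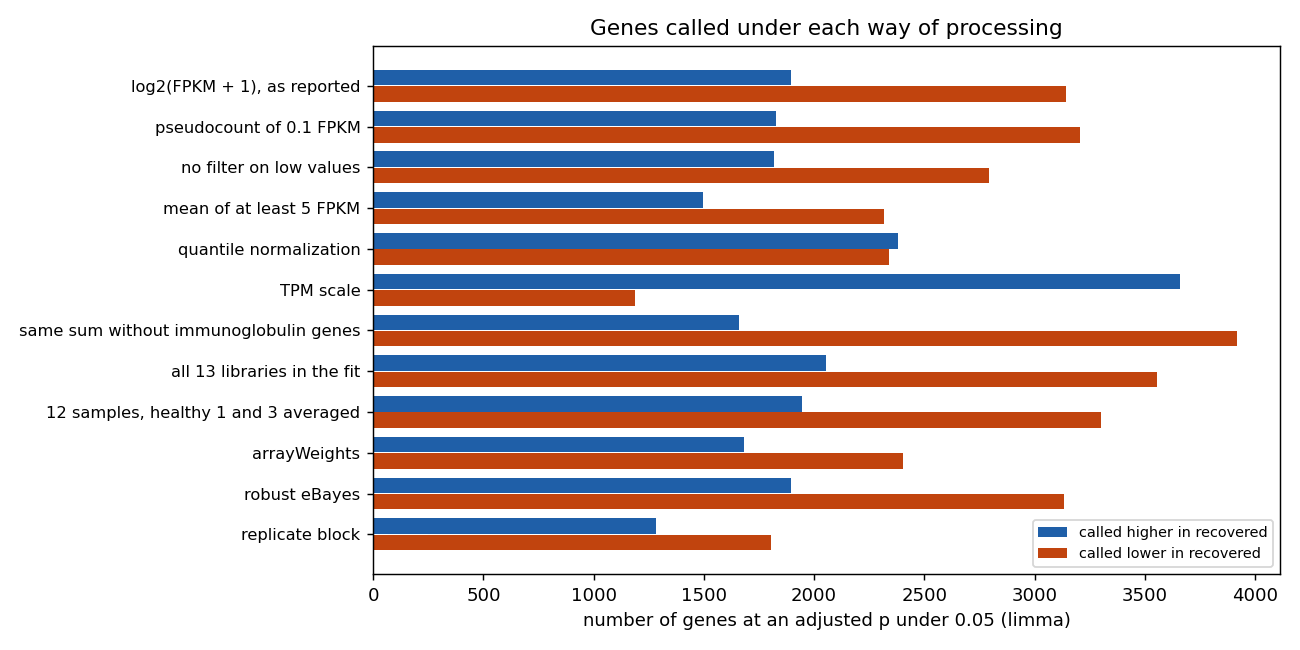
Number of genes called higher (blue) and lower (orange) in recovered libraries at an adjusted p under 0.05 in limma, for the reported scale and 11 other ways of processing. Lower genes are in the majority as reported, 3141 against 1896, while the TPM scale gives 1187 against 3660 and quantile normalization nearly equal numbers.

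The 12 largest rises among genes measured in every recovered library mixed secreted stromal proteins with red cell RNA. Prg4, lubricin of joint surfaces, was at 19120, 17250, 15500 and 10470 FPKM in recovered 1 to 4 and at 15 to 244 (median 57.2) in pre-leukemic libraries (log2 change 7.89 ± 0.68, SE; limma adjusted p = 6.24e-06). Timp1, an inhibitor of matrix metalloproteases (GRCm38 chromosome X, 20870166 to 20874735), was at 1076, 920, 889 and 1270 FPKM against 0.246 to 13.8 (8.13 ± 0.58, 1.77e-06). Plau, the urokinase protease, was at 271, 444, 779 and 795 against 0.0854 to 0.906 (8.57 ± 0.38, 5.45e-08). No pre-leukemic library reached the lowest recovered one in any of these genes. The acute-phase protein gene Saa3 was at 276, 477, 983 and 435 FPKM against 0 to 2.17 (8.65 ± 0.47, 2.11e-07), and at 5.99 to 22.4 in healthy libraries. The remaining rises were the collagenase Mmp13, the chemokine Ccl2, Col12a1, the chaperone Clu, the small nuclear RNA Rn7sk and the globins Hba-a1, Hba-a2 and Hbb-bs.

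The 12 largest falls were genes of plasma cells, granulocytes, myeloid cells and lymphocytes. Igj, the joining chain of secreted antibody, was at 44480 to 69250 FPKM (median 59800) in pre-leukemic libraries, at 13.9 in recovered 1 and at 0 in the other 3 (adjusted p = 5.45e-08). Rgs1, a brake on chemokine receptor signals in lymphocytes, was at 255 to 624 FPKM (median 397) and listed at 0 in all 4 recovered libraries (5.88e-09). Ctla4, the checkpoint receptor of T cells, was at 134 to 404 FPKM and likewise at 0 (5.45e-08). Lyz2, the lysozyme of myeloid cells, was at 94.2 to 683 FPKM (median 544) against 4.02, 0, 0.505 and 0 (-7.85 ± 0.62, 3.47e-06). The others were Igkv5-39, Ighg2c, Ighg2b, Ngp, Tnfrsf17, Derl3, S100a9 and Prg2, the major basic protein of eosinophils, none of which overlapped between the groups. Immunoglobulin segments and the globin pairs are near-copies, so how reads were split among them is uncertain.

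Bone-forming genes were mostly higher in recovered libraries. Of the osteoblast list, 18 of 22 genes were tested, 14 were called higher and 1 lower, with a median log2 change of 4.37. Col1a1, a chain of bone's main collagen (chromosome 11, 94936224 to 94953042), was at 489, 512, 663 and 784 FPKM in recovered and 3.23 to 10.4 (median 8.94) in pre-leukemic libraries (6.20 ± 0.35, 2.7e-07). Ibsp, bone sialoprotein, was at 405, 325, 271 and 182 against 0 to 6.94 (7.03 ± 0.65, 1.01e-05). Dlx5, a homeobox factor that drives osteoblast differentiation, was at 76.9, 61.1, 181 and 197 FPKM against 0 to 0.517 (6.74 ± 0.42, 7.24e-07). All recovered values of these genes lay above all pre-leukemic ones, and Col1a1 and Ibsp stayed below the healthy libraries (995 to 1070 and 1347 to 1433).

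Late bone markers were less even. Osteocalcin, Bglap, was listed at 0 in all 6 pre-leukemic libraries and at 138, 11.6, 0 and 19.9 FPKM in recovered ones (adjusted p = 0.0116), so the groups touched at 0. Its near-copy Bglap2 was at 56.5, 23.5, 34.2 and 8.55 against 0 to 4.22 (0.000261), and reads of the pair may be split between them. Sp7, a factor needed for osteoblast formation, was at 0 in every pre-leukemic library and at 7.43, 0.293, 6.49 and 9.53 in recovered ones (0.00318). The exception was Runx2, the master factor of the osteoblast lineage, which fell from 15.2 to 49.3 FPKM (median 20.6) to 4.74, 2.91, 4.2 and 4.88 (-2.28 ± 0.41, 0.00119), a call that ended on the TPM scale. Alkaline phosphatase, Alpl, was at 5.85 to 8.92 in the pre-leukemic group and at 11.5, 5.61, 13.6 and 19.6 FPKM in the recovered group (adjusted p = 0.203). The highest recovered value lay just inside the 18.7 to 44.5 of healthy libraries, and the others below it.

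Cartilage and joint genes split. Of 18 chondrocyte genes 15 were tested, 8 were higher, 7 were not called, and the median change was 1.42. Of the 15, 8 were at 0 in every pre-leukemic and 2 in every recovered library. The others were few, among them Sox9, Comp, Chad and Prg4, and their median of 5.38 equals the change of Sox9. Sox9, the master factor of cartilage, was at 40.5, 42.6, 36.6 and 66.6 FPKM against 0 to 0.395 (5.38 ± 0.34, 7.46e-07), a level like the 37.1 to 46.9 of healthy libraries. Comp, a cartilage matrix protein, was at 213, 348, 625 and 320 against 0.55 to 5.99 (6.62 ± 0.45, 1.22e-06), and Chad, chondroadherin, at 360, 355, 299 and 586 against 0 to 4.24 (7.69 ± 0.54, 1.68e-06). Both groups stayed below the 2426 to 2459 FPKM of healthy libraries for Chad. The classical cartilage collagen Col2a1 was at 0.381, 0.0859, 0 and 4.62 in recovered, at 0 in all pre-leukemic and at 31.7 to 60.8 in healthy libraries (adjusted p = 0.169).

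**Figure D3:**
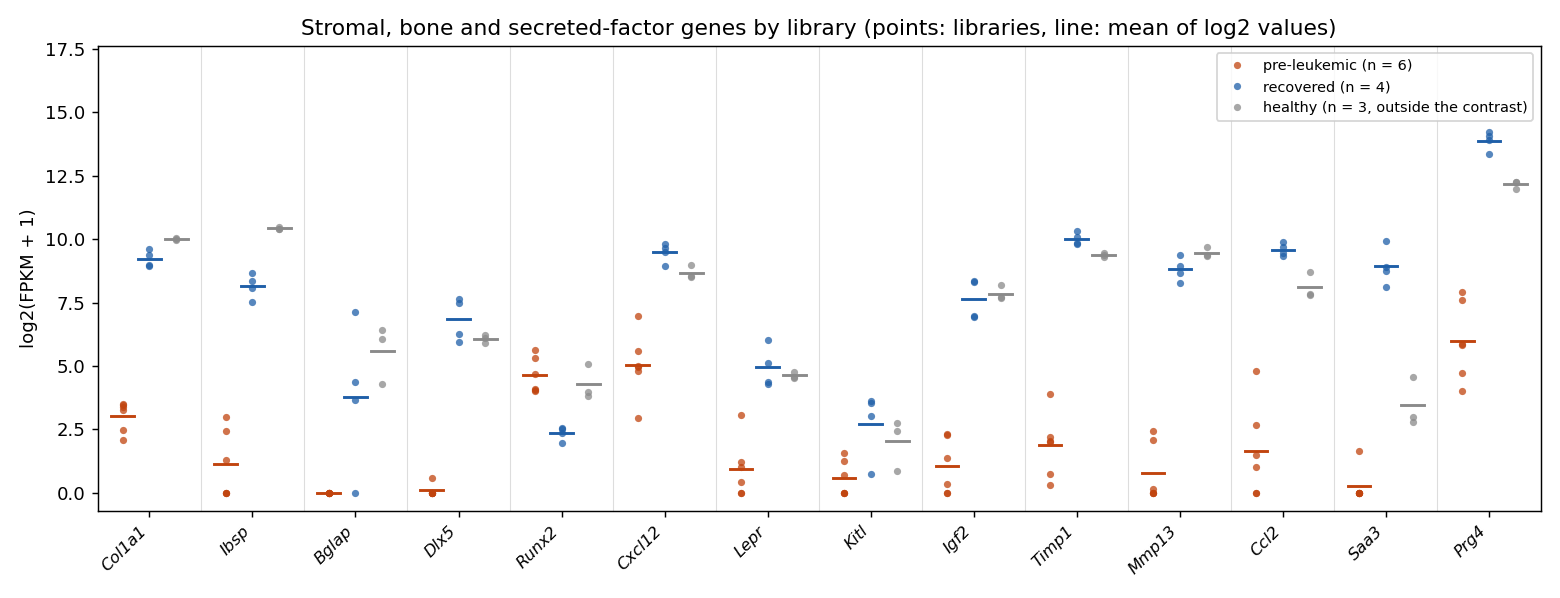
FPKM of 14 stromal, bone and secreted-factor genes on a log2(FPKM + 1) axis, 1 point per library and a line at the mean of the log2 values, for pre-leukemic, recovered and healthy libraries. Except for Runx2, which is lower, and for Bglap and Kitl, where the groups touch or overlap, every recovered point lies above every pre-leukemic one.

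Matrix genes changed almost as a block. Among 18 other collagens 17 were called higher (median 3.77), among 25 of 26 proteoglycan and matricellular genes 24 (3.53), and among 26 of 29 proteases, inhibitors and crosslinkers 24 higher and 2 lower (4.11). Fibronectin, Fn1, was at 2145, 1618, 1662 and 1002 FPKM against 13.7 to 70.5 (median 29.1; 5.63 ± 0.39, 1.55e-06). Biglycan, Bgn, a proteoglycan of bone matrix, was at 1164, 1461, 1996 and 1204 against 7.06 to 36.6 (5.87 ± 0.44, 2.24e-06). Ctgf, a matricellular growth factor, was at 227, 404, 613 and 362 against 2.22 to 4.91 (6.34 ± 0.33, 1.58e-07). None of the groups overlapped, and the recovered range overlapped or lay above the healthy one (1081 to 1159, 1095 to 1158 and 223 to 281).

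Network collagens and remodelling enzymes moved too. Col8a2, a short-chain collagen, was at 0 in all 6 pre-leukemic libraries and at 28.1, 26.9, 42.6 and 64.5 FPKM in recovered ones (adjusted p = 1.22e-06). Mmp14, the membrane metalloprotease that activates other proteases, was at 312, 497, 773 and 623 against 1.65 to 8.76 (6.66 ± 0.44, 9.81e-07). Collagen folding and crosslinking genes rose with them, among them Serpinh1 (5.41 ± 0.40), Lox (5.57 ± 0.45) and Plod2 (4.85 ± 0.46). The 2 that fell were Mmp8 and Mmp9, metalloproteases known from neutrophil granules. Mmp9 was at 29.5 to 75.4 FPKM and then at 15.5, 0, 0 and 8.52 (-3.96 ± 0.77, 0.00196), and Mmp8 at 3.83 to 17.1 and then at 0 throughout (0.000188).

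Genes that identify marrow stroma followed. Of 18 stromal identity genes 16 were tested, 12 higher and 1 lower, with a median of 2.42. Lepr, a receptor that marks perivascular stroma, was at 33.9, 18.6, 19.6 and 64.5 FPKM against 0 to 7.39 (4.0 ± 0.64, 0.000493). Ebf1, a factor of stromal and B cells, was at 31.3, 31.8, 42.1 and 19.2 against 0.28 to 2.58 (3.53 ± 0.41, 4.88e-05). Pdgfrb, a growth factor receptor of pericytes, was at 37.8, 25.4, 16.1 and 15.3 against 0.464 to 2.68 (3.45 ± 0.41, 6.43e-05), and Pdgfra at 23, 19.3, 24.9 and 11.9 against 0.099 to 8.63 (2.22 ± 0.61, 0.0141), a call that ended with weights for library quality. Recovered and pre-leukemic values did not overlap for any of them, and Pdgfra and Pdgfrb stayed below the healthy libraries (34 to 44.1 and 49.9 to 57.2).

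Surface proteins used to sort MSCs did not move together. Ly6a, Sca-1, fell from 3150 to 6375 FPKM (median 5373) to 2379, 2580, 1922 and 2416 (-1.08 ± 0.19, 0.000882), above the 1103 to 1390 of healthy libraries, and this call ended on the TPM scale, where the sign turned, and after quantile normalization. Thy1 was higher, at 103, 97.3, 86.9 and 140 against 39.9 to 70.9 (0.95 ± 0.25, 0.0113), a call lost under quantile normalization and after rescaling without immunoglobulins. Neither gene's groups overlapped. Eng and Cd44 were not called (0.03 ± 0.46 and 0.55 ± 0.25).

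Factors that support blood-forming cells were 27 of 30 tested, with 15 higher, 2 lower and a median of 2.02. Cxcl12, which retains stem cells in marrow, was at 717, 497, 910 and 807 FPKM against 6.75 to 124 (median 30.7; 4.44 ± 0.59, 0.000143). Kitl, the ligand of Kit, was at 10.5, 11.3, 0.655 and 7.23 against 0 to 1.96 (2.14 ± 0.60, 0.0156), with recovered 3 inside the pre-leukemic range. Jag1, a Notch ligand, was at 49.9, 33.2, 78.2 and 34.9 against 0.0405 to 2.08 (4.70 ± 0.44, 1.15e-05). Igf2, an insulin-like growth factor, was at 328, 124, 121 and 317 against 0 to 3.97 (6.58 ± 0.60, 8.85e-06). The 2 that fell were the lymphoid cytokine Flt3l (-2.50 ± 0.31, 8.52e-05) and the Notch ligand Dll4 (0.274 to 6.64 FPKM, then 0 in all 4 recovered libraries, adjusted p = 0.0395). Both calls ended on the TPM scale, and that of Dll4 also in 7 of 10 fits that left out a library. Several factors known from stroma were not called, such as Il7 (-0.48 ± 0.77), Angpt1 (-1.02 ± 0.67) and Bmp4 (-0.35 ± 0.90). Bmp4 stood at 16, 12.9, 0 and 2.16 FPKM in recovered and at 83.5 to 112 in healthy libraries.

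Signals directed at macrophages were mostly higher, with falls no more frequent than the 23.9% of all genes tested. Of 32 genes 28 were tested, 19 were higher and 5 lower, and the median was 2.56. Gas6, a ligand of receptors for dying cells, was at 122, 203, 326 and 281 FPKM against 0.383 to 6.64 (5.90 ± 0.49, 4.67e-06). Tnfaip6, a hyaluronan-binding protein that damps inflammation, was at 298, 418, 496 and 307 against 0.705 to 9.24 (6.32 ± 0.47, 2.23e-06). Csf1, the growth factor of macrophages, was at 111, 102, 67.8 and 85.9 against 2.31 to 13.5 (3.38 ± 0.43, 0.000109). Its receptor Csf1r was near 0 in both groups (0 to 2.2 and 0 to 1.1 FPKM). The 5 that fell were the cytokines Il10 (14.1 to 67.4 FPKM, then 0, 0, 1.01 and 0), Ifng (8.26 to 28.6, then 0 throughout) and Tnf (8.67 to 21.2, then at most 2.15), the arginine enzyme Arg1 (8.67 to 106, then at most 2.42), and Cd47, whose call ended on the TPM scale with the sign turned.

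Chemokines and inflammatory genes also held both rises and falls, the falls no more frequent than the 23.9% of all genes tested. Among 35 genes 33 were tested, 12 higher and 7 lower, with a median of 0.66, and on the TPM scale 18 were higher. Ccl2, which draws monocytes, was at 642, 825, 937 and 696 FPKM against 0 to 26.7 (7.93 ± 0.82, 2.17e-05) and at 225 to 414 in healthy libraries. Cxcl14 was at 188, 454, 578 and 573 against 0 to 4.78 (7.45 ± 0.58, 3.14e-06), and Cxcl1, which draws neutrophils, at 2410, 3159, 3764 and 5150 against 6.05 to 124 (6.63 ± 0.67, 1.89e-05). In contrast Ccl5, a chemokine of T and NK cells, fell from 51.9 to 135 FPKM to 1.9, 0, 0 and 3.23 (-5.45 ± 0.49, 8.22e-06), and Ccl4 from 20.7 to 442 to 0 in all 4 (7.8e-05). The groups overlapped in none of these. Recovered libraries exceeded healthy ones in Saa3, Cxcl9 (9.78, 50.1, 80.2 and 31.2 against 0.792 to 2.01 FPKM) and Cxcl13 (135 to 192 against 16.6 to 20.7), a side-by-side description without a test.

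Complement genes, tested in 14 of 16, were higher in 8 and lower in 1, with a median of 3.11. C3, the central component, was at 426, 583, 376 and 364 FPKM against 22.7 to 75.1 (3.41 ± 0.31, 9.64e-06), and 155 to 204 in healthy libraries. The protease C1s1 was at 197, 256, 268 and 232 against 7.46 to 19.9 (3.96 ± 0.30, 2.44e-06). Properdin, Cfp, made by myeloid cells, was at 5.21 to 28.4 in pre-leukemic libraries and at 0 in every recovered one (6.09e-05).

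Fat-lineage and contractile genes rose with exceptions. Of 14 adipocyte genes 12 were tested, 9 were higher, 2 lower, and the median was 2.90. Cebpb, an early adipogenic factor that inflammation also induces, was at 143, 285, 586 and 348 FPKM against 4 to 8.98 (5.50 ± 0.38, 1.56e-06). Lpl, lipoprotein lipase, was at 43.5, 37.4, 168 and 95.4 against 0.168 to 8.23 (4.32 ± 0.62, 0.000243). The 2 that fell were Pparg, the master factor of fat cells, from 1.56 to 17.9 FPKM to 0.888, 0, 0 and 0 (-2.65 ± 0.58, 0.00391), and the fatty acid carrier Fabp5 (-2.87 ± 0.58, 0.00251). Of 14 smooth muscle and pericyte genes 10 were tested and 8 were higher (median 3.05), 5 with a mean of at least 5 FPKM. Rgs5, a pericyte marker, and Acta2, smooth muscle actin, were at 0 in every pre-leukemic library and at 51.7, 40.2, 85.8 and 21.1 and at 36.6, 14.3, 2.9 and 10.1 FPKM in recovered ones (2.23e-06 and 0.000228).

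The IGF axis moved nearly as a whole, with 11 of 12 tested genes higher and a median of 4.08. Igfbp7, a binding protein, was at 976, 632, 772 and 1193 FPKM against 9.36 to 44.1 (5.14 ± 0.42, 4.24e-06). Htra1, a protease that cuts binding proteins and matrix, was at 649, 316, 580 and 410 against 4.18 to 21.7 (5.38 ± 0.41, 2.55e-06). The ligand Igf1 varied most among recovered libraries, at 31.9, 13.9, 449 and 142 against 3.18 to 21.1 (2.92 ± 0.88, 0.0217), and its call ended without recovered 3 or without recovered 4. Over all fits that left out a library its change lay between 2.06 and 3.70. The receptor Igf1r was not called (-0.19 ± 0.35) and lay at or under 1.58 FPKM in all 10 libraries.

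TGF-beta and BMP genes numbered 27 tested of 28, with 16 higher, none lower by limma, and a median of 2.22. Id3, a direct target of BMP signals, was at 1263, 1312, 1917 and 1499 FPKM against 23 to 127 (4.41 ± 0.44, 1.78e-05). Tgfbi, a matrix protein that TGF-beta induces, was at 75.1, 62.3, 45.7 and 64.8 against 0.938 to 6.28 (3.87 ± 0.42, 3.1e-05), and the BMP antagonist Chrdl1 at 21.9, 14.3, 10.8 and 25.9 against 0 to 2.17 (3.82 ± 0.44, 5.15e-05). The receptors Tgfbr1 and Tgfbr2 were not called (-0.76 ± 0.55 and -0.83 ± 0.39).

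Wnt genes numbered 25 tested of 28, 16 higher and 2 lower, with a median of 1.85. Among receptors, Fzd1 was at 30.6, 11.6, 23.9 and 25.2 FPKM against 0 to 0.93 (3.94 ± 0.39, 1.78e-05). All 6 tested secreted antagonists of the list were called higher, namely Sfrp1 (2.98 ± 0.46), Sfrp2, Sfrp4 (5.25 ± 0.90), Wif1 (3.60 ± 0.94, with overlapping groups), Dkk2 (3.37 ± 0.61) and Dkk3, while Dkk1 was at 0 in all 10 libraries and was not tested. Sfrp2 was at 144, 124, 52.8 and 61.2 against 0.353 to 6.23 (4.91 ± 0.57, 5.24e-05), and Dkk3 at 39.6, 56.8, 65.7 and 19.3 against 0.955 to 5.2 (3.61 ± 0.47, 0.000123). The 2 that fell were Tcf7, a Wnt-responsive factor of T cells with recovered 3 inside the pre-leukemic range (-2.98 ± 0.66, 0.00437), and Rnf43, an enzyme that removes Wnt receptors, at 0.317 to 3.27 FPKM and then at 0 throughout (0.0143), a call that ended with library weights. The target gene Axin2 was not called (-1.0 ± 0.76). Of 11 tested Notch genes 4 were higher and 2 lower, and Notch2 was at 26, 19.8, 24.5 and 42.1 against 1.11 to 1.65 (3.52 ± 0.34, 1.38e-05). Both falls, Dll4 and the coactivator Maml1 (-2.03 ± 0.37, 0.00118), ended on the TPM scale.

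Growth-signal genes that respond within minutes, known also to respond to cell isolation, were 27 of 30 tested, with 14 higher, 3 lower and a median of 1.17, with 5 lower after quantile normalization or rescaling without immunoglobulins, and 20 higher and 1 lower on the TPM scale. Egr1, a factor induced by ERK signalling, was at 815, 906, 1067 and 978 FPKM against 179 to 251 (2.17 ± 0.16, 1.73e-06), and the survival gene Ier3 at 345, 525, 834 and 855 against 15 to 22.8 (4.89 ± 0.29, 5.26e-07). Klf4 was at 332, 351, 265 and 346 against 32.7 to 103 (2.50 ± 0.34, 0.000147). Fos went the other way, from 1928 to 3141 to 1381, 986, 572 and 1499 FPKM (-1.20 ± 0.26, 0.00354), although it was at 2610 to 3317 in healthy libraries, and this call ended on the TPM scale, with the sign turned.

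**Figure D4:**
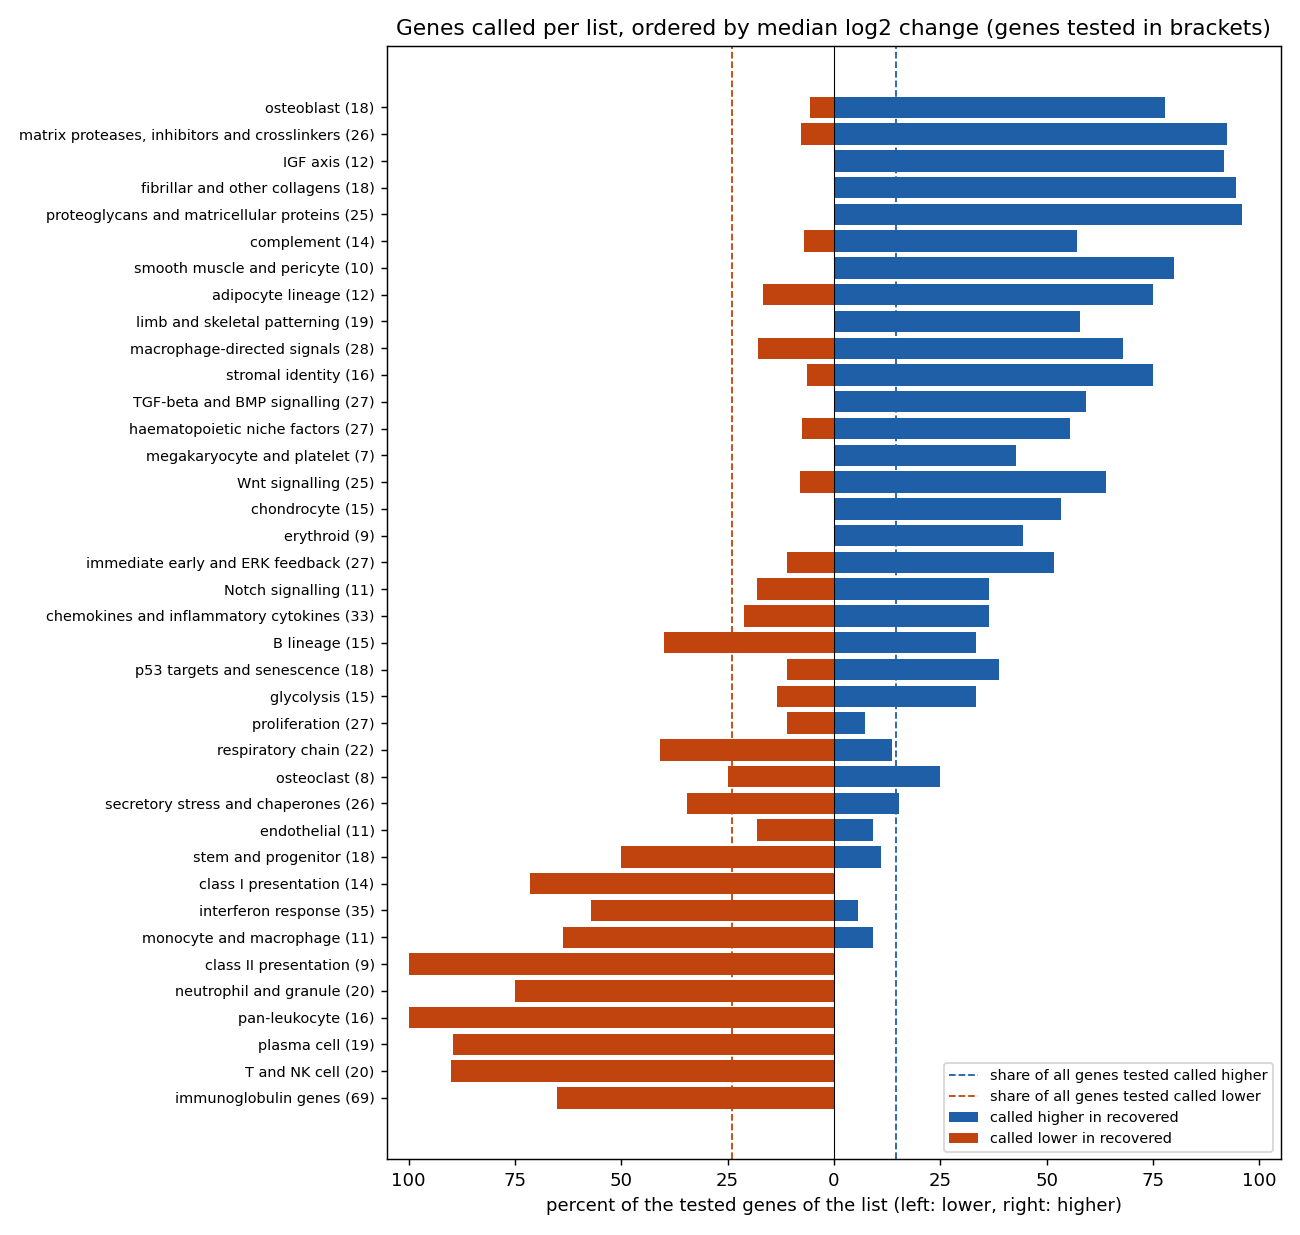
Percent of the tested genes of each of 38 gene lists called higher (blue, to the right) and lower (orange, to the left) in recovered libraries by limma at an adjusted p under 0.05, with dashed lines at the 14.5% and 23.9% of all genes tested. Matrix, bone, IGF and stromal lists reach far to the right, and leukocyte, plasma cell, interferon and antigen presentation lists to the left.

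Plasma cell genes fell in 17 of 19 and immunoglobulin genes in 45 of 69 tested, with medians of -5.19 and -7.24. Of the immunoglobulin genes 57 were at 0 in every recovered library, so that median depends on the added 1 FPKM, and 25 of the 69 were called with library weights. Ighm, the heavy chain of early antibody, was at 1273 to 23280 FPKM (median 12260) against 185, 18, 94.7 and 25.1 (-7.24 ± 0.83, 4.68e-05). Xbp1, the factor that builds the secretory system of plasma cells, fell from 656 to 1302 FPKM to 71.4, 112, 81.8 and 35 (-3.72 ± 0.30, 3.82e-06), and its healthy values were 95 to 128. The elongation factor Eaf2, strong in plasma cells, was at 137 to 344 against at most 0.56 (-7.68 ± 0.33, 4.91e-08).

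T and NK cell genes fell in 18 of 20 tested (median -5.29), all 16 leukocyte-wide genes fell (-4.99), and neutrophil genes fell in 15 of 20 (-3.92). Ptprc, which encodes CD45, was at 80.7 to 155 FPKM (median 138) against 0.483, 16.4, 1.21 and 0.365 (-5.41 ± 0.63, 5.47e-05), with recovered 2 the highest of the recovered libraries. Trbc1, a constant region of the T cell receptor, was at 112 to 218 against 0, 0, 1.53 and 0 (-7.17 ± 0.36, 1.28e-07). S100a9, a neutrophil protein that binds calcium, was at 1269 to 5949 FPKM (median 5346) and remained measurable in recovered 1 and 3, at 389 and 150, while recovered 2 and 4 were at 0 (-7.99 ± 1.57, 0.00203). The primary granule genes Elane, Mpo, Prtn3 and Ctsg were not called, and their pre-leukemic values spread widely (Elane 0 to 398, Mpo 0 to 200 and Prtn3 5.25 to 618 FPKM). Monocyte and macrophage genes fell in 7 of 11 tested, and the 1 higher, Vcam1, is an adhesion molecule that stroma also carries. Emr1, Cd163, Mrc1, Fcgr1, Marco, Cx3cr1 and Spic of this list were too low to be tested.

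B lineage genes split as well. Of 15 tested of 20, 5 were higher and 6 lower, and the median was 0.05. Igll1 (chromosome 16, 16860671 to 16863985), a surrogate light chain made by pre-B cells, was at 0 in all 6 pre-leukemic libraries and at 27.6, 78.3, 497 and 98.5 FPKM in recovered ones (adjusted p = 1.26e-05). Its partner Vpreb1 was at 13.1, 20.9, 185 and 36.3 against 0 to 2.18 (4.55 ± 0.70, 0.000397). Vpreb2, a near-copy of Vpreb1, and Pax5 rose as well, and Ebf1 is also stromal. Recovered 3 held the highest value of Igll1, Vpreb1, Vpreb2 and Pax5, and healthy libraries held Igll1 at 87.5 to 89.6. Among the 6 falls, Cd79a of the antigen receptor went from 120 to 235 to 8.53, 9.47, 56.3 and 36.6 (-3.02 ± 0.50, 0.000601). Ms4a1, CD20, went from 3.42 to 17.4 to at most 3.33 (-2.54 ± 0.54, 0.00319). On the TPM scale 3 of the 6 falls were called.

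Red cell RNA was a matter of globins. Hba-a2, an alpha globin, was at 596, 954, 1188 and 952 FPKM in recovered libraries, at 0 to 0.599 in pre-leukemic and at 13.2 to 21.6 in healthy ones (9.70 ± 0.32, 5.88e-09). Hbb-bs, a beta globin, was at 502, 490, 450 and 679 against 0 to 0.914 (8.77 ± 0.33, 1.45e-08). The other called members of the list were Hba-a1 and Hbb-bt, 4 of 9 tested in all, whereas Car2, Tfrc, Klf1, Ermap and Car1 were not called. Alas2, a red cell gene too low to enter the test, was at 0 in recovered 1, 2 and 3 and at 2.22 FPKM in recovered 4. Among 7 tested platelet genes 3 were higher, but the calls of Pf4 (2.51 ± 0.89, 0.0439) and Itga2b (2.40 ± 0.87, 0.0468) ended in 7 and 9 of the 10 fits that left out a library, and 1 of the 7 was called with a pseudocount of 0.1 FPKM. Gp1bb, a platelet adhesion receptor, was at 14.8, 53.7, 49.5 and 27.6 against 0 to 0.394 (4.96 ± 0.42, 5.05e-06).

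Stem and progenitor genes were lower in 9 and higher in 2 of 18 tested, with a median of -1.24, and 4 to 6 were lower after quantile normalization, with library weights, on the TPM scale, without the filter and with a mean of at least 5 FPKM. Procr, the receptor EPCR of stem cells and endothelium, was at 158, 248, 299 and 303 FPKM against 6 to 19.9 (4.18 ± 0.37, 7.19e-06), and the other rise was Cd34 (2.39 ± 0.43, 0.0011). Gfi1, a repressor in stem cells and granulocytes, fell from 19.2 to 40.9 to at most 1.33 FPKM (-4.20 ± 0.35, 4.8e-06), and Cd27, a costimulatory receptor of lymphocytes, from 60.7 to 135 to 0 throughout (1.45e-07). The Kit, Mecom and Tal1 calls ended in most omissions of a library. Endothelial genes showed no common direction. Plvap was higher at 0.866 to 3.18 FPKM (1.49 ± 0.26, 0.000856). Tek (-1.77 ± 0.41, 0.00549) and the sinusoidal scavenger receptor Stab2 (at 0 in all recovered libraries, 0.00207) were lower. The Tek call ended with library weights. Pecam1 was not called (-1.21 ± 0.45, adjusted p = 0.0515), and Emcn reached 140 FPKM in recovered 3 and 0 in the other 3. In the osteoclast list the protease Ctsk rose to 435, 245, 533 and 134 FPKM from 1.28 to 15.6 (5.39 ± 0.55, 2.15e-05). Acp5 was lower (-1.90 ± 0.63, 0.0323), with overlapping groups and a call lost in 6 of 10 omissions. The Acp5 call also ended with library weights, with the replicate block and on the TPM scale, where its change was -0.51.

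Interferon genes were lower as a group, with exceptions that moved up. All 35 genes were tested: 20 fell, 2 rose and 13 were not called, with a median of -2.05. On the TPM scale 8 fell and 3 rose. Irf7, the factor that amplifies interferon production (chromosome 7, 141262706 to 141266481), was at 79.8 to 148 FPKM (median 139) against 14, 4.72, 18.3 and 9.79 (-3.39 ± 0.36, 2.75e-05). Mx1, an antiviral GTPase, was at 16.5 to 32.5 and at 0 in all recovered libraries (1.62e-06). Healthy libraries were lower still for Irf7 (1.82 to 3.59) and at 0 for Mx1.

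The 2 that rose, Ifitm2 and Ifitm3, are membrane proteins that block viral entry and are carried by many mesenchymal cells. Ifitm2 was at 443, 576, 500 and 651 FPKM against 11.4 to 47.9 (4.08 ± 0.38, 1.05e-05), and Ifitm3 at 1307, 1067, 677 and 1351 against 209 to 620 (1.54 ± 0.30, 0.00183). Neither gene's groups overlapped, and healthy values were 345 to 396 and 617 to 935. Isg15, a ubiquitin-like interferon product, was not called, at 13.1, 10.3, 4.73 and 27 against 8.16 to 58.2 (-1.03 ± 0.63).

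The promoter sequences show whether rise and fall went with the interferon response letters. Of the 35 genes 27 had a RefSeq promoter (GRCm38.p6, 250 bases before to 50 after the start), and 16 of these (59.3%) held GAAANNGAA on either strand, the core of interferon-stimulated response elements, against 8.8% of the 9777 tested genes with a promoter and 8.56% of all 32851 promoters. Of the 16 with a match 2 rose, 6 fell and 8 were not called, and of the 11 without one 8 fell and 3 were not called. The letters were thus present in a gene that rose, in a pair that fell and in Isg15. The stretches below run 5′ to 3′ on the gene's strand, with every match, overlapping ones joined, in capitals, and were chosen after the values were seen.
Ifitm2, chr7:140955964-140956043, minus strand: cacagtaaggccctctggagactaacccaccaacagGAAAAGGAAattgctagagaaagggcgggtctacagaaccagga
Oas1a, chr5:120907526-120907605, minus strand: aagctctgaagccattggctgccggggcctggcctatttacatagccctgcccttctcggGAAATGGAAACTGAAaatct
Oas3, chr5:120777691-120777770, minus strand: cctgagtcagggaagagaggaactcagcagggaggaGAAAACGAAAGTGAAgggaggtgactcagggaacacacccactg
Isg15, chr4:156200853-156200932, minus strand: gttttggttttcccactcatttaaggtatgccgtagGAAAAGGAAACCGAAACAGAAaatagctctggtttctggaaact
Oas1a and Oas3, sensors of double-stranded RNA, fell from 14.5 to 29.1 FPKM to 5.18, 0.925, 0.88 and 1.44 (-3.10 ± 0.42, 0.000148) and from 5.74 to 16.6 to at most 0.427 (-3.25 ± 0.37, 4.43e-05). The first match begins 46, 20, 75 and 78 bases before the start of Ifitm2, Oas1a, Oas3 and Isg15, and a match is a description of letters, not of binding.

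Over all genes called, the letters were counted in both directions, with no test. GAAANNGAA was in 8.54% of the promoters of higher genes and 10.6% of lower ones. The letters TGTGGT, the core bound by Runx factors, were in 13.1 and 18.2% (15.2% of all tested, 16.8% of all promoters), TATAAA in 13.6 and 8.79% (8.97 and 13.6%, in the same order), TGANTCA in 7.61 and 5.92% (6.25 and 7.81%), ATGCAAAT in 1.87 and 1.67% (1.51 and 1.74%) and GGGANTTTC in 1.15 and 0.814% (1.09 and 1.11%). In the osteoblast list 12 of 18 tested genes had a promoter, and 5 held TGTGGT, of which 3 rose, 1 fell (Runx2) and 1 was not called. The stretch before osteocalcin, shown because this site is a textbook Runx2 element, holds the letters on the opposite strand, 132 bases before the start.
Bglap, chr3:88384556-88384635, minus strand: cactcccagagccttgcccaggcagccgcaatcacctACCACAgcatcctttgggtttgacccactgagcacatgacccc

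**Figure D5:**
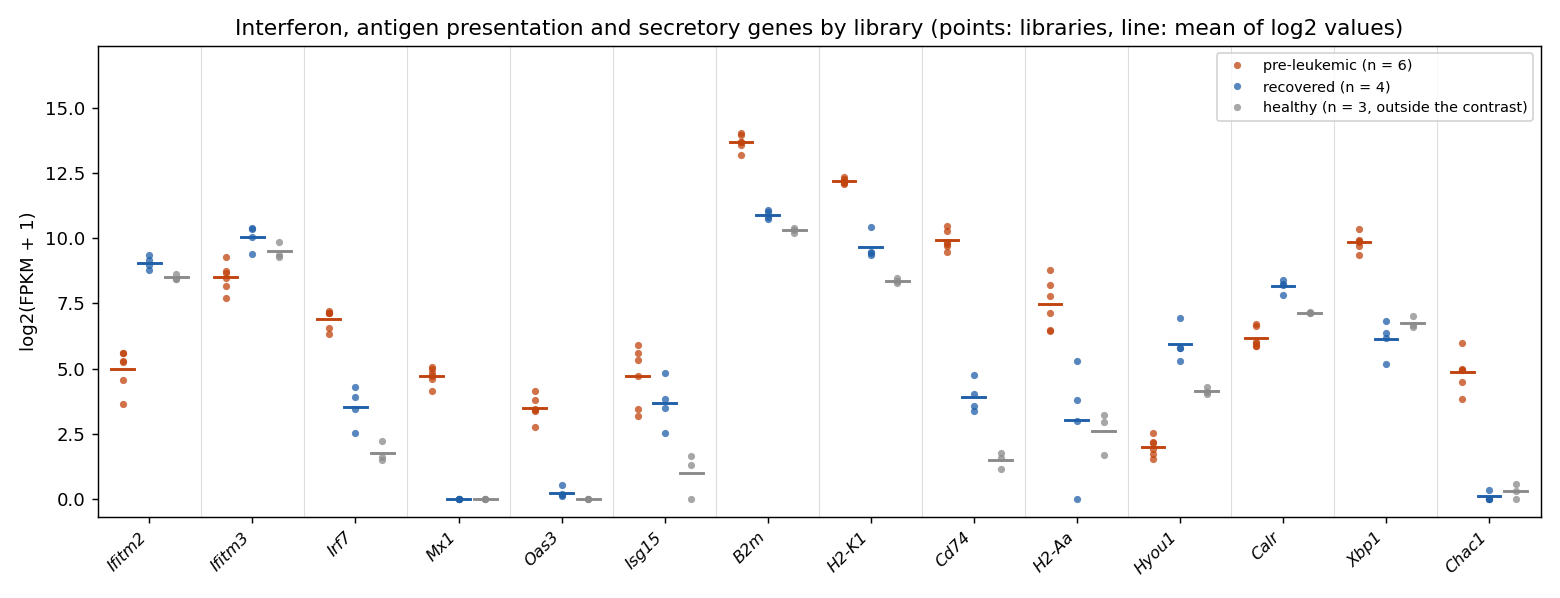
FPKM of 14 interferon, antigen presentation and secretory genes on a log2(FPKM + 1) axis, 1 point per library and a line at the mean of the log2 values, for pre-leukemic, recovered and healthy libraries. Ifitm2, Ifitm3, Hyou1 and Calr are higher and the other genes lower in recovered libraries, except Isg15, which was not called and whose groups overlap.

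Antigen presentation fell with the interferon genes. Of 14 class I genes 10 were lower (median -1.88), while on the TPM scale 5 were lower and 2 higher. All 9 tested class II genes were lower (-3.90), of which 6 on the TPM scale. B2m, the light chain of class I molecules, was at 9318 to 16850 FPKM against 1724, 2050, 2164 and 1793 (-2.79 ± 0.15, 2.55e-07). H2-K1, a class I heavy chain, was at 4414 to 5202 against 654, 705, 1393 and 691 (-2.54 ± 0.19, 2.74e-06), where reads of related class I genes may be shared. Psmb8, a subunit of the immunoproteasome, was at 427 to 596 against 37, 42.2, 77.5 and 17.4 (-3.68 ± 0.33, 8.06e-06). Cd74, the invariant chain of class II molecules, was at 717 to 1421 against 15.2, 9.31, 25.8 and 10.8 (-6.01 ± 0.30, 1.27e-07). Recovered values of B2m, H2-K1 and Cd74 lay between the other groups: healthy libraries held B2m at 1179 to 1338, H2-K1 at 312 to 357 and Cd74 at 1.22 to 2.33.

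Secretory chaperone and stress genes, all 26 tested, were lower in 9 and higher in 4, with a median of -0.52, and on the TPM scale 10 were higher and 4 lower. Both the falls and the rises held genes of the unfolded protein response of secretory cells. Edem1, which hands misfolded proteins to degradation, went from 103 to 206 FPKM to 8.62, 5.4, 5.15 and 5.3 (-4.57 ± 0.27, 5.18e-07). Chac1, a stress-induced enzyme that breaks down glutathione, went from 13.3 to 62.5 to at most 0.269 (-4.77 ± 0.43, 7.88e-06). The 4 rises were P4hb, Hyou1, Calr and Atf4. P4hb, a subunit of collagen prolyl hydroxylase, was at 1290, 1196, 1993 and 1849 against 195 to 259 (2.74 ± 0.18, 1.12e-06), and Hyou1, a chaperone of the endoplasmic reticulum, at 38.4, 54.6, 120 and 54.3 against 1.86 to 4.77 (3.96 ± 0.39, 1.52e-05). The main chaperone Hspa5 was not called (0.31 ± 0.29).

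Cell cycle genes showed little shared movement. Of 28 genes 27 were tested, 2 rose, 3 fell, 22 were not called, and the median was -0.24, while 5 fell in the fits without pre-leukemic 4 and without recovered 3. Rrm2, a subunit of ribonucleotide reductase, rose to 38.5, 61.3, 110 and 173 FPKM from 0.213 to 10.9 (4.36 ± 0.73, 0.000662), above the 9.4 to 13.3 of healthy libraries, and Ccnd1, cyclin D1, was the other (1.54 ± 0.48, 0.0262), lost in 5 of 10 omissions of a library. Mcm2, a replication helicase, fell from 10.1 to 28.7 to 0.223, 1, 6.68 and 0.706 (-2.88 ± 0.53, 0.0013), and the proliferation antigen Mki67 was not called (-0.61 ± 0.56). Of 18 tested p53 and senescence genes 7 rose, 2 fell and 9 were not called, with a median of 0.00. Cdkn1a, the inhibitor p21, was at 247, 333, 382 and 335 against 8.57 to 47.2 (4.08 ± 0.40, 1.57e-05), and Gadd45g at 450, 249, 479 and 487 against 23.7 to 70.3 (3.27 ± 0.34, 2.44e-05). Trp53inp1, a p53 target, fell from 74.1 to 129 to 4.44, 0.771, 9.86 and 7 (-4.22 ± 0.46, 3.05e-05).

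Metabolic genes gave calls that hung on the scale. Glycolysis genes were higher in 5 and lower in 2 of 15 tested, with 1 and 3 after rescaling without immunoglobulins, 2 and 3 after quantile normalization, and none lower on the TPM scale. Hk2, the inducible hexokinase, was at 701, 796, 1204 and 849 FPKM against 9.1 to 77.5 (4.88 ± 0.46, 1.16e-05). Gapdh was at 284, 243, 233 and 341 against 415 to 484 (-0.73 ± 0.16, 0.00372), and its change was 0.74 on the TPM scale. Respiratory chain genes were higher in 3 and lower in 9 of 22, but higher in 13 and lower in 0 on the TPM scale, and the mitochondrial mt-Co1, at 3679 to 5643 against 10680 to 13010 (-1.38 ± 0.12, 4.96e-06), stood at 0.10 on the TPM scale and 0.43 under quantile normalization. No direction can be given for these groups.

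Genes that pattern limbs and skeleton were higher in 11 of 19 tested and lower in none by limma (median 2.70). Dlx3, a homeobox factor of bone, was at 31.5, 20.9, 43.6 and 32.4 FPKM against 0 to 0.226 (4.94 ± 0.34, 1.26e-06), and at 2.24 to 4 in healthy libraries. Prrx2, a factor of limb mesenchyme, was at 73.6, 65, 69.6 and 103 against 0 to 6.39 (5.30 ± 0.55, 2.41e-05). Hoxa11, a gene of the middle limb, was at 3.32, 7.42, 5.78 and 11.3 against 0 to 0.228 (2.82 ± 0.33, 5.45e-05). None of the groups overlapped in these genes, and Zeb1, Snai2 and Meox1 were not called.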

How the data were processed

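RNA of sorted MSCs was sequenced in 13 libraries, and 10 of them (6 pre-leukemic, 4 recovered) entered the comparison. The authors deposited FPKM values for 33433 entries, made with bcl2fastq, TopHat, Cufflinks 2.2.1 and Cuffnorm on mm10, per the submitters' processing notes; for the gene annotation and the library-size method the sources used here give nothing. FPKM is scaled to library size, so 1 very abundant gene class can lower all others, depending on the method. Without immunoglobulin genes, the deposited FPKM summed to 539492 to 583332 in pre-leukemic and to 623676 to 842291 in recovered libraries. In pre-leukemic 1 and 4 that sum was 552167 and 583332, beside 672893 and 2403059 FPKM of immunoglobulin genes. The 672893 may be too low, as given below for the kappa constant region. Whether immunoglobulins lowered the values of other genes was not tested. Raw counts and total depth were not analysed here.

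From the deposited FPKM, log2(FPKM + 1) was compared with limma 3.58.1 (lmFit, eBayes with a trend, R 4.3.3) over the 13118 genes that reached 1 FPKM in 3 or more of the 13 libraries. Benjamini-Hochberg adjusted p-values under 0.05 were called, with 8 residual degrees of freedom. Changes are log2 differences, recovered minus pre-leukemic, with standard errors; they understate low genes. A gene listed at 0 throughout a group gets no fold. Tables and figures used Python 3.11.15, numpy 2.4.6, pandas 2.3.3 and matplotlib 3.10.9. Coordinates are from GENCODE vM21 (GRCm38, the same assembly as mm10), which matched 32972 entries by symbol, and promoters from RefSeq on GRCm38.p6.

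The named genes are the 12 largest rises and 12 largest falls among genes at 1 FPKM or more throughout the higher group (at most 4 immunoglobulin genes, no unnamed gene models), the 3 members of each of 38 lists with the smallest p, and Cxcl12, Kitl, Lepr, Pdgfra, Pdgfrb, Ptprc, Pecam1, Col1a1, S100a9, Cd74 and Igj; other genes were chosen after their values were seen. The members and lists were chosen with earlier results of these data known. Alternatives changed the pseudocount, filter, scaling, samples, variance model and replicate block, and left out each library. Replicate numbers were not used to pair libraries. Some genes that the naming rule picks are not reported here.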

Additional observations from a re-analysis of the deposited data

Results flagged for a closer look

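In 260 groups of 4 or 6 libraries of named genes, 24 held 1 library whose gap to its nearest neighbour was large against the range of its group; chance flags about 1 in 20 groups, and in groups otherwise at or near 0 a single low value is enough. Among pre-leukemic libraries such values were Hba-a2 0.5987, Dlx5 0.5166 and Chrdl1 2.171 FPKM in replicate 1, Plvap 0.1008 in replicate 2, Col12a1 9.978, Ebf1 0.2802 and Gp1bb 0.3938 in replicate 4, Derl3 170.2 in replicate 5, and Saa3 2.169 and Trbc1 111.8 in replicate 6. The values of Derl3, Ebf1 and Trbc1 were the lowest of their group and the others the highest.

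Among recovered libraries, replicate 1 held Igj 13.89, Ngp 45.21, Cd247 0.2354 and Edem1 8.618 FPKM, all the highest of the group, and replicate 2 held Tagln 18.11 and Gadd45g 249 FPKM, the lowest. Replicate 3 stood apart most often, with the highest values of Ighg2b at 2.03, Prg2 at 6.706, Trbc1 at 1.533, Ccr2 at 0.115, Cytip at 2.416 and H2-K1 at 1393 FPKM and the lowest of Pf4 at 0 and Pcna at 42.64 FPKM. It is also the library with the highest Igll1, Vpreb1 and Igf1.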

How the results depend on the processing

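The number of genes called lower changed most with the scale. On the TPM scale 3660 genes were higher and 1187 lower, and the median log2 change over all genes turned from -0.41 to 0.58, since there each library is divided by a sum that holds the immunoglobulins. The median was -0.66 with a pseudocount of 0.1 FPKM, -0.16 without a filter, -0.08 after quantile normalization and -0.63 after rescaling to the same sum without immunoglobulin genes. Leaving out a library in turn gave 1691 to 2049 higher and 2690 to 3125 lower genes, with medians of -0.46 to -0.38. Pcna was at 0.23, Gapdh at 0.74, mt-Co1 at 0.10 and mt-Nd4 at 0.81 on the TPM scale, and mt-Co1 at 0.43 after quantile normalization, against falls as reported. Same-numbered libraries did not deviate together (correlations -0.013 to 0.013), and neither did differently numbered ones (-0.042 to 0.017). With every pair near 0 across groups of such unlike content, this cannot show whether the numbers pair libraries. A replicate block gave 1285 higher and 1804 lower genes, with 8 of the 10 libraries sharing a number across groups. Of 488 called list members and named genes, 358 kept their call in every alternative fitted; among the other 130 the call ended for 61 on the TPM scale, 54 with library weights, 74 with the replicate block and 23 to 49 without a single library, and 16 had the opposite sign on the TPM scale. The difference in genes detected was -1234.9 at a limit of 0.1 FPKM (exact permutation p = 0.0143), -1185.1 at 5 FPKM, -2067.4 after rescaling without immunoglobulins and -1954.0 to -1547.0 without a single library. In recovered libraries 3 reads on 1 kb come to 1.05 to 1.92 FPKM, so a gene listed at 0 there may be present below that level; this covers counting error only.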

Other observations

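Several structural RNAs, chosen after their values were seen, were higher in recovered libraries, though RNAs such as Rn7sk and Rpph1 are used by every cell and their listed zeros may be failed estimates. Rn7sk, the small nuclear RNA that restrains transcription elongation, was at 557, 946, 917 and 644 FPKM in recovered and 0 to 3.69 in pre-leukemic libraries (8.97 ± 0.49, limma adjusted p = 2.37e-07), with 303 to 356 in healthy ones. Rpph1, the RNA of RNase P, was listed at 0 in all 6 pre-leukemic libraries and at 19.2, 18.7, 5.99 and 90.0 FPKM in recovered ones (0.000118). Rmrp, the RNA of RNase MRP, was not called (2.9, 29.9, 0 and 4.48 against 0 to 2.04 FPKM; 2.07 ± 0.77, adjusted p = 0.0513). The mitochondrial ribosomal RNAs mt-Rnr1 and mt-Rnr2 were at 1080 to 1807 against 214 to 291 (2.59 ± 0.18, 1.27e-06) and at 4552 to 6989 against 687 to 927 (2.84 ± 0.15, 2.1e-07). Malat1, a nuclear long RNA, was at 373, 722, 907 and 648 against 49.7 to 162 (2.81 ± 0.38, 0.000157), while its neighbour Neat1, which scaffolds nuclear paraspeckles, was lower with overlapping groups (10.4 to 28.4 against 19 to 80.5 FPKM; -1.33 ± 0.43, 0.0306). By annotated class, 5 of 9 tested snRNAs and 5 of 13 misc_RNAs were higher and none lower by limma. Over all genes tested, 14.5% were higher and 23.9% lower. The 2 of 13 miRNAs called higher, with none lower, were close to that higher share. Of 18 snoRNAs 0 were higher and 1 lower (median -1.08). The lincRNAs were split, 13 higher and 13 lower of 80, and their higher share was also close to that of all genes.

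The constant region of the kappa light chain, Igkc, had no value above 0 in the first and second pre-leukemic replicates, whereas the other 4 held 966100 to 1668000 FPKM. The same pair of libraries had the lowest immunoglobulin shares, 54.9 and 55.3% of their summed FPKM against 70.7 to 80.5% in the others. A listed 0 in a file without counts can be a failed estimate, in which case those shares are too low.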
